A study of Mus musculus with 10 samples.

Results

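The genes described here are the integrin subunits and the cytoplasmic proteins that link integrins to actin at focal adhesions, measured in fragments of the mouse embryo at embryonic day 5.5. They were taken by name: every probe set assigned to exactly 1 gene symbol of the Itga or Itgb families, or to 1 of 12 named adhesion genes. The rule found 34 genes of 18193, 24 of them integrin subunits and 10 adhesion proteins, read by 80 of 45137 probe sets. Fermt1 and Ptk2 were in the rule, and neither had a probe set under exactly that symbol.

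The arrays compared the anterior distal region (Ad), the posterior proximal region (Pp) and the whole embryo at the same age. All embryos were untreated and came from B6SJLF1×CerlP-GFP matings, in which green fluorescence marks the anterior visceral endoderm (AVE), an extraembryonic cell layer that patterns the epiblast beneath it. An Ad fragment held the fluorescent AVE with its underlying epiblast, and a Pp fragment held proximal visceral endoderm and epiblast from the opposite side, up to the border with the extraembryonic region. RNA was linearly amplified, labelled with biotin and hybridised to 2 Affymetrix array types, MOE430A and MOE430B, each with 2 Ad, 2 Pp and 1 whole-embryo array. The fragment arrays are numbered 1 and 2 on MOE430A and 3 and 4 on MOE430B. The labels do not say how many embryos stood behind an array, or whether arrays of a group came from separate ones, so p-values here measure the spread between arrays, which may be technical. The whole embryo, with 1 array per type, has no spread of its own, and the tests against it assume that it varies like the fragments.

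Integrins are receptors made of an alpha and a beta subunit that bind extracellular matrix outside the cell and, through talin and kindlin, the actin cytoskeleton inside it. The alpha subunit largely sets the ligand: laminin, collagen, or proteins with an RGD motif such as fibronectin and vitronectin. In the early egg cylinder a laminin-rich basement membrane separates visceral endoderm from epiblast, and loss of the common beta1 subunit is lethal around implantation in mice.

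Values are the deposited MAS5 intensities, a linear brightness per probe set. For the tests a constant (248.1 on MOE430A, 10.46 on MOE430B) was added, the log2 value was centred on the median of each array, and probe sets were kept if their mean over the 5 arrays exceeded an intensity of about 464 on MOE430A or 37.2 on MOE430B. That kept 32 of 58 member probe sets (21 of 30 genes) on MOE430A and 12 of 22 (10 of 15 genes) on MOE430B. In all 27 of the 34 genes were kept on at least 1 array type. A probe set is said to have risen or fallen where limma's adjusted p over all kept probe sets of the array type was under 0.05. Folds come from the same fit, on centred values with the constant added, and are not ratios of deposited intensities.

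The Ad fragments matched their label by AVE marker genes. The 10 AVE markers on MOE430A, each by its brightest probe set, summed to 25448 and 20477 in Ad and 7883 and 7303 in Pp, against 9492 in the whole embryo. Of the 9 kept ones 5 rose in Ad over Pp, where 0.169% of all kept probe sets were called in either direction. Pp replicate 2 stood apart on MOE430A: its 11 extraembryonic ectoderm and trophoblast markers summed to 17906, against 11794 in Pp replicate 1 and 12485 and 12008 in Ad, with 21447 in the whole embryo. The whole-embryo arrays carried markers of maternal decidual stroma. The 20 decidual markers on MOE430A, 18 of them kept, summed to 14782 and 16131 in Ad and 15280.5 and 14319 in Pp, against 56020 in the whole embryo. None of them was listed at 1 or below in every fragment at once.

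No member gene passed the test between Ad and Pp fragments. On MOE430A limma called 0 of 32 kept member probe sets, against 0.169% of all kept probe sets, and 0 had an unadjusted p under 0.05, against 11.7% of all. On MOE430B limma called 0 of 12, against 0.111% of all, and 1 (Itgb3) had an unadjusted p under 0.05, against 10.4%. The log2 differences of the kept member probe sets, Ad minus Pp, lay between -0.16 and 0.26 on MOE430A with a median of -0.02, beside -0.03 over all kept probe sets. On MOE430B they lay between -0.62 and 0.32 with a median of -0.02, beside -0.01 over all.

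After centring, the Ad arrays lay wholly above the Pp arrays for 1 of 32 member probe sets on MOE430A (Itga5, against 16.2% of all) and wholly below for 9 (against 29.1% of all). The 9 belonged to Itga2, Itga2b, Itga9, Itgal, Itgax, Itgb3, Tln1 and, with 2 probe sets, Zyx. On MOE430B 1 of 12 lay wholly above (Tln2, against 19.3%) and 2 wholly below (Itgb3 and another Tln2 probe set, against 23.4%). Every one of these shares was below that of all kept probe sets. Centring moved the median difference of all kept MOE430A probe sets, which was 0.04 on uncentred values, so small signs near 0 depend on it.

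Among the laminin receptors, Itga6, the alpha subunit that pairs with beta1 or beta4, had the largest Ad minus Pp difference on MOE430A. It read 1960.2 and 2176 in Ad, against 1921 and 1316 in Pp. Both Ad arrays and Pp replicate 1 lay close together and Pp replicate 2 lay apart, near the 1289.5 of the whole embryo. The log2 difference was 0.26 (95% interval -0.12 to 0.64, limma adjusted p = 0.552), without Pp replicate 1 it was 0.49 (limma adjusted p = 0.007), and without Pp replicate 2 it was 0.03 (limma adjusted p = 0.903). Pp replicate 2 was also the array with the high extraembryonic markers. Elf5, a trophoblast transcription factor, read 2432 there, against 601 in Pp replicate 1 and 340.2 and 296 in Ad. A link between these markers and the Itga6 value was not tested. A second Itga6 probe set of MOE430A, below the filter, showed no such gap, at 301 and 322 in Ad and 304 and 292 in Pp, against 294 in the whole embryo.

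Itga3, another laminin-binding alpha subunit, read 1262 and 1129 in Ad, against 1114 and 1029 in Pp. The Ad arrays lay higher on the deposited scale, and after centring the arrays overlapped (log2 difference 0.06, interval -0.13 to 0.25). Itga7, a laminin receptor best known from muscle, read 644 and 546 in Ad, against 475 and 741 in Pp, with the Ad arrays inside the Pp pair. Itgb1, the beta subunit shared by these receptors, read 1673 and 1659.6 in Ad, against 1615 and 1459.7 in Pp (log2 difference 0.03, interval -0.14 to 0.21).

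Among the fibronectin and other RGD receptors, Itga5, the alpha subunit of the main fibronectin receptor, read 1296 and 1168 in Ad, against 1101 and 889.9 in Pp. The groups did not overlap, yet the difference of 0.19 (interval -0.06 to 0.43) did not pass the test (limma adjusted p = 0.51). It was 0.30 without Pp replicate 1 (limma adjusted p = 0.074) and 0.071 without Pp replicate 2. Itgav, the vitronectin receptor alpha subunit, read 1591 and 1570.2 in Ad, against 1413 and 1727 in Pp, with Ad between the Pp arrays. Itgb5, one of its beta partners, read 1343 and 1400.2 in Ad, against 1172 and 1388 in Pp, which overlapped (0.02, interval -0.21 to 0.25).

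Itgb3, a beta partner of Itgav and of the platelet subunit Itga2b, gave the largest difference of any member between the fragments. Its MOE430B probe set read 68.6 and 93.6 in Ad, against 96.6 and 152 in Pp. The closest Ad and Pp arrays were 93.6 and 96.6, so the groups were only just apart. The log2 difference was -0.62 (interval -1.16 to -0.07) and did not pass across all probe sets (limma adjusted p = 0.447). On leaving out an array it ran from -0.89 to -0.34, the smallest size being that without Pp replicate 4. A second Itgb3 probe set on MOE430A read 529 and 526 in Ad, against 565 and 537 in Pp (-0.11, interval -0.27 to 0.05).

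Integrins of collagen, blood and other ligands had small differences between the fragments. Itga2b read 1019 and 944 in Ad, against 1004 and 1043 in Pp (-0.12, interval -0.29 to 0.05), with overlap on the deposited scale. Itga9, which binds tenascin and osteopontin among others, read 539 and 540.4 in Ad, against 569.8 and 584 in Pp. The Itga9 pairs were separate, with a difference of -0.13 (interval -0.29 to 0.03, limma adjusted p = 0.477). Itga4, a receptor for fibronectin and VCAM1, read 87.3 and 123 in Ad, against 106 and 105 in Pp on MOE430B, with the Ad arrays on both sides of Pp. The other kept integrins of MOE430A (Itga2, Itgal, Itgax and Itgb7) had differences between -0.09 and -0.01. On MOE430B, Itga1, Itga8, Itga10 and Itgal had differences between -0.03 and 0.06.

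No adhesion protein gene passed the test between Ad and Pp. Zyx, zyxin, an actin-associated protein of tensed adhesions, read 843 and 831 in Ad, against 856 and 963 in Pp, the largest negative difference on MOE430A (-0.16, interval -0.35 to 0.03, limma adjusted p = 0.475). Both Ad arrays lay below both Pp arrays. Ilk, integrin-linked kinase, a scaffold that binds PINCH and parvin, read 1789 and 1822 in Ad, against 1457 and 1807 in Pp (0.07, interval -0.19 to 0.32). Here 3 of 4 arrays sat together and Pp replicate 1 was the low one. Tln2, a second talin, read 312 and 285 in Ad, against 227 and 219.7 in Pp on MOE430B. Its pairs were apart by more than either pair's spread, and the difference of 0.32 (interval -0.01 to 0.66) did not pass (limma adjusted p = 0.497). Its other 2 probe sets gave -0.07 and 0.10, so the 3 did not run the same way, and their average was 0.12.

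The remaining MOE430B differences had wide intervals. Parvb, beta-parvin, read 294 and 234 in Ad, against 230.2 and 206 in Pp (0.18, interval -0.23 to 0.59). Lims1, the adaptor PINCH1, read 52.6 and 85.7 in Ad, against 72.9 and 80.4 in Pp (-0.24, interval -0.74 to 0.27). The Ad arrays of Lims1 spanned the Pp pair, and those of Parvb lay just above theirs on the deposited scale. A second Itgav probe set on MOE430B read 44.9 and 54.7 in Ad, against 41.8 and 29.9 in Pp (0.31, interval -0.14 to 0.76), at intensities close to the filter. The intervals leave room for modest differences in either direction for these genes, and a missed threshold does not show equal levels.

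**Figure D1:**
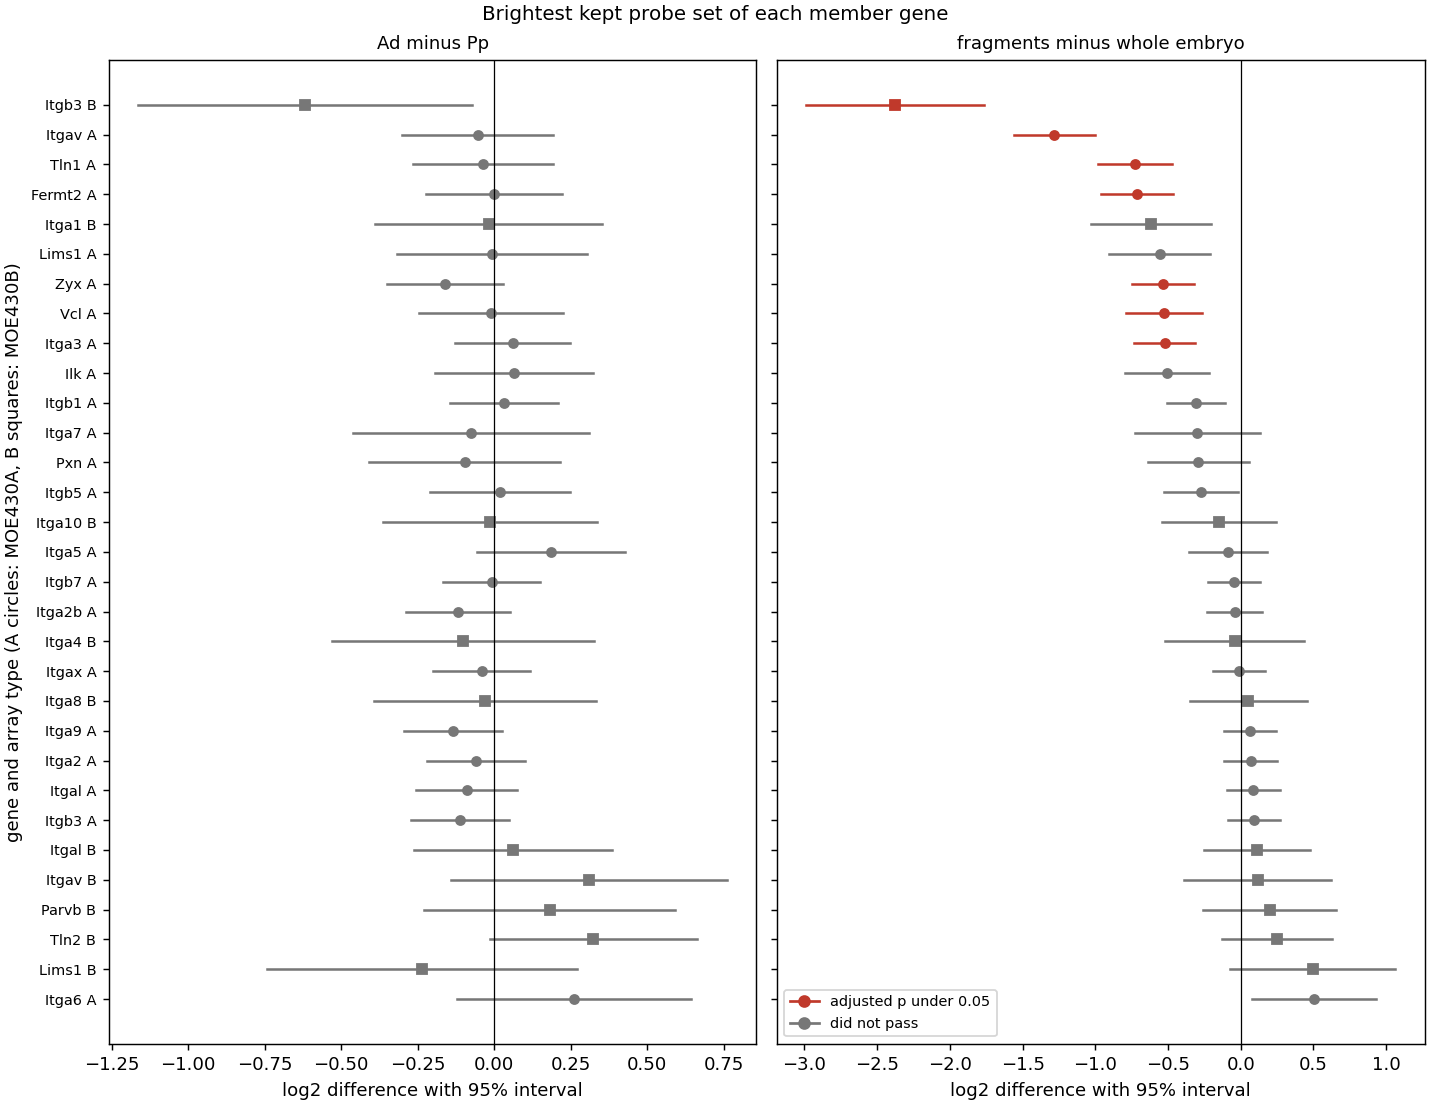
Log2 differences with 95% intervals for the brightest kept probe set of each member gene on each array type, Ad minus Pp on the left and fragments minus whole embryo on the right, with circles for MOE430A, squares for MOE430B and red for an adjusted p under 0.05. No gene is red on the left, and 7 are red on the right, all below 0, with Itgb3 at -2.38 and Itgav at -1.28.

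Against the whole embryo, 7 member genes were lower in the fragments and none was higher by the test. They were the alpha subunits Itgav and Itga3, the beta subunit Itgb3, and the adhesion proteins Tln1, Fermt2, Zyx and Vcl. On MOE430A 6 of 32 kept member probe sets fell, against 5.18% of all kept probe sets, and limma called 0 higher, against 4.6%. On MOE430B 1 of 12 fell, against 1.81% of all, and 0 were higher, against 0.407%. Every called member read above the filter intensity on every array. In bulk tissue, fewer cells of a type and less RNA per cell cannot be told apart.

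The lean was wider than the calls on MOE430A. There 20 of 32 member probe sets had all 4 fragment arrays below the whole embryo, against 22.7% of all kept probe sets, and 5 had all 4 above, against 38.5%. The median difference of the members was -0.14, beside 0.05 over all kept probe sets, and without the filter on low values it was -0.06 over 58 member probe sets, beside 0.04 over all. On MOE430B 4 of 12 lay wholly below, against 23.5%, and 5 wholly above, against 28.8%, with a median of 0.08, beside 0.03 over all. Without centring, the split of all calls on MOE430A was 338 higher and 966 lower, in place of 624 higher and 703 lower, and 9 member probe sets fell.

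Vcl and Fermt2 encode adhesion proteins, and their promoters hold a CArG box, the motif bound by serum response factor, which controls many cytoskeletal genes. They are shown with that of Itgav, the called integrin of MOE430A with the largest difference, which holds none. The windows span 250 bases before and 50 after the gene start in RefSeq (GRCm38.p6), written 5′ to 3′ on the gene's strand, with the CArG box in capitals. They lie at chr14:20929148-20929447 on the plus strand for Vcl, chr14:45530016-45530315 on the minus strand for Fermt2 and chr2:83724147-83724446 on the plus strand for Itgav.
Vcl: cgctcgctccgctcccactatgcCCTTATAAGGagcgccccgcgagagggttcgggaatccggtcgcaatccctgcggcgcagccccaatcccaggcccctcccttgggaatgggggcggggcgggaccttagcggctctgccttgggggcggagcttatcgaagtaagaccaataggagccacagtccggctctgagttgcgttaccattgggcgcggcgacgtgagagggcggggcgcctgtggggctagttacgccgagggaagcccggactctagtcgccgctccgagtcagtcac
Fermt2: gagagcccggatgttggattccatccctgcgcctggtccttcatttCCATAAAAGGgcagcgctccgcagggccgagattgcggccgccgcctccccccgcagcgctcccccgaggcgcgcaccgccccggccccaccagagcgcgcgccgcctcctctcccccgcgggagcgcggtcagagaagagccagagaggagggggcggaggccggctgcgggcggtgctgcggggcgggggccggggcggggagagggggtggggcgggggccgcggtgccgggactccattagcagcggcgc
Itgav: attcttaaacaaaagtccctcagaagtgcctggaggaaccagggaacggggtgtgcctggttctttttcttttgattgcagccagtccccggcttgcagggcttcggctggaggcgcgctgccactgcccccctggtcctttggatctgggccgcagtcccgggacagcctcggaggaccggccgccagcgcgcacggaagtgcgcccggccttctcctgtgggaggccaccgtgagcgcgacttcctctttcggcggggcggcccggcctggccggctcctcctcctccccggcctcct
The box is CCTTATAAGG, 227 bases before the start, in Vcl and CCATAAAAGG, 204 bases before the start, in Fermt2. RefSeq windows were found for 24 of the 34 member genes and for 6 of the 7 called ones. A CArG box, searched on both strands, was in 3 of 29 member windows (10.3%; Fermt2, Itgb6 and Vcl), against 1.63% of all 32851 windows. The 29 windows belong to 24 genes, so some genes count more than once. Of the 6 called genes with a window 2 held the box, and Itgb6 was below the filter. The GC box GGGCGG was in 15 of 29 member windows (51.7%, against 35.7% of all), the TEAD motif GGAATG in 3 (10.3%, against 14.7%) and the AP-1 motif TGANTCA in 4 (13.8%, against 7.81%), each on both strands. A match describes letters in a window and does not show binding, and these arrays did not measure any factor at these promoters.

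Itgb3 showed the largest difference of the members. It read 68.6 and 93.6 in Ad and 96.6 and 152 in Pp, against 555 in the whole embryo on MOE430B. All 4 fragments lay far below the whole embryo, with a fragment mean of 103 ± 35.4 (SD, n = 4). On the log2(value + constant) scale it was 5.19-fold lower in the fragments (log2 difference -2.38, interval -2.99 to -1.77, limma adjusted p = 0.00717). Its MOE430A probe set read 529, 526, 565 and 537 in the fragments, against 533 in the whole embryo, and showed no such gap (0.09, interval -0.09 to 0.27). Those values are low for that array type, between the filter of about 464 and the lowest array median of 591.

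Itgav, its alpha partner, came next. It read 1591 and 1570.2 in Ad and 1413 and 1727 in Pp, against 4424 in the whole embryo on MOE430A, with a fragment mean of 1575 ± 128 (SD, n = 4). The fragments were close to each other and well apart from the whole embryo, 2.43-fold lower (-1.28, interval -1.56 to -1.01, limma adjusted p = 0.0027). The kept MOE430B probe set read 37.7 in the whole embryo, inside its fragment range of 29.9 to 54.7 (0.12, interval -0.39 to 0.62). The 2 other MOE430A probe sets were below the filter, at 361 to 497 in the fragments, against 438 and 436 in the whole embryo.

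**Figure D2:**
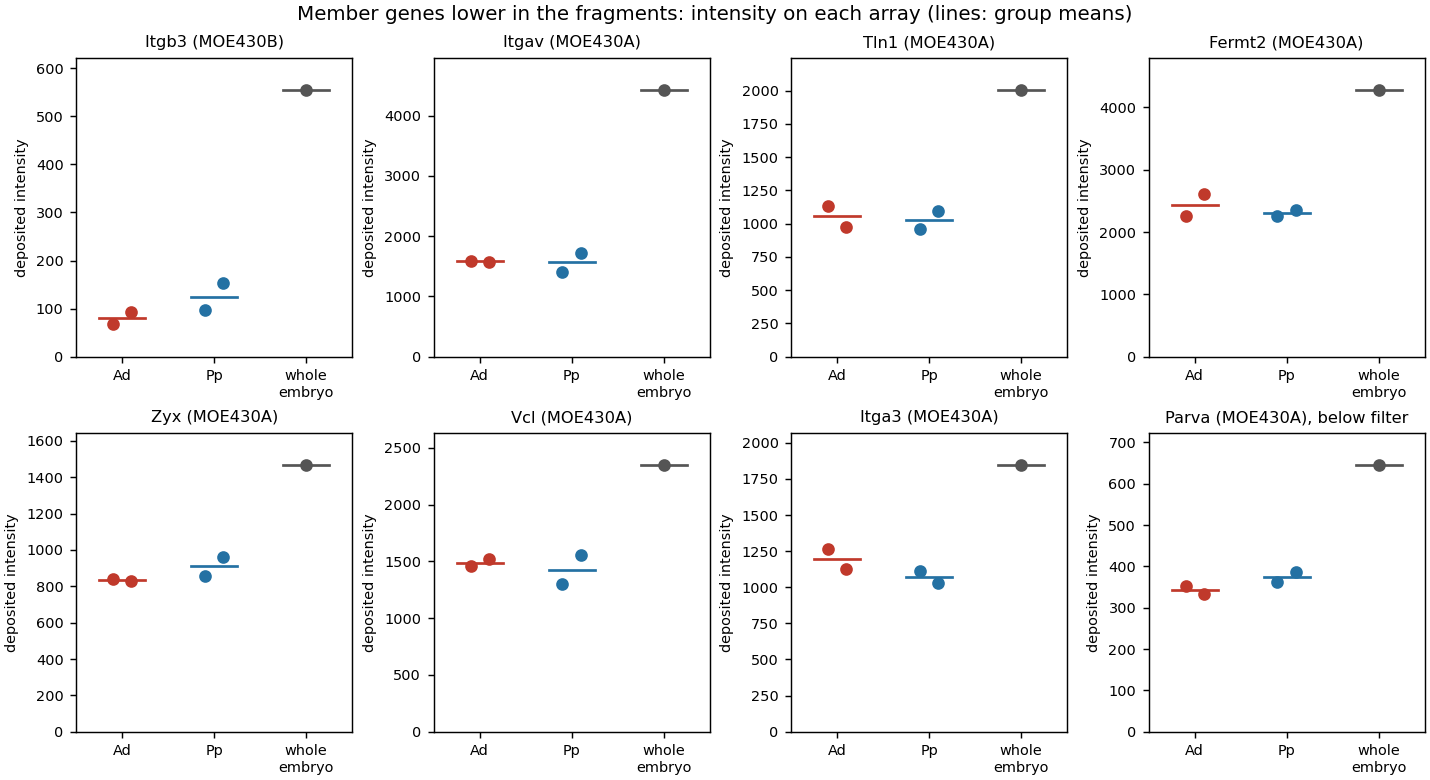
Deposited intensity on each array (points) with group means (lines) for the 7 member genes that were lower in the fragments and for Parva, whose probe set was below the filter. The 4 fragment arrays lie below the whole-embryo point in every panel, by the largest factor for Itgb3, where it reads 555 against at most 152 in a fragment.

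The other beta partners of Itgav did not pass. Itgb5 read 1343 and 1400.2 in Ad and 1172 and 1388 in Pp, against 1758 in the whole embryo, with all 4 fragments below it (-0.27, interval -0.53 to -0.02, limma adjusted p = 0.16). Itgb6 and Itgb8 were below the filter. The Itgb6 probe sets read 341 to 359 and 137 to 143 in the fragments, against 353 and 124 in the whole embryo. Itgb8 read 21.6 to 36.7 in the fragments, against 32.6 in the whole embryo. Of the remaining RGD receptors, Itga5 read 1296 and 1168 in Ad and 1101 and 889.9 in Pp, against 1272 in the whole embryo, which lay inside the fragment range (-0.09, interval -0.36 to 0.18). A second Itga5 probe set of MOE430A, below the filter, read 295 and 368 in Ad and 331 and 331 in Pp, against 459 in the whole embryo. There Ad and Pp overlapped, and all 4 fragments lay below the whole embryo. Itga8, a nephronectin receptor subunit, read 173 and 212 in Ad and 181 and 189.7 in Pp, against 180.0 in the whole embryo on MOE430B (0.05, interval -0.35 to 0.46).

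Among the laminin receptors, the brightest probe sets of Itga3 and Itga6 ran in opposite directions. The other kept Itga3 probe sets had differences of only 0.10 and -0.05. Itga3 read 1262 and 1129 in Ad and 1114 and 1029 in Pp, against 1845 in the whole embryo, and fell 1.44-fold (-0.52, interval -0.73 to -0.31, limma adjusted p = 0.0209). Itga6 read 1960.2 and 2176 in Ad and 1921 and 1316 in Pp, against 1289.5 in the whole embryo. All 4 fragments lay above the whole embryo, Pp replicate 2 by only a little, and the difference of 0.50 (interval 0.08 to 0.93) did not pass (limma adjusted p = 0.132). Itga7 was lower in all 4 fragments, against 849 in the whole embryo, without passing (-0.30, interval -0.73 to 0.13). Itgb4, the hemidesmosome subunit that pairs with Itga6, was below the filter at 202 to 241 in the fragments, against 247 in the whole embryo. Itgb1 read 1673 and 1659.6 in Ad and 1615 and 1459.7 in Pp, against 2167 in the whole embryo, lower in all 4 fragments and short of the threshold (-0.31, interval -0.50 to -0.11, limma adjusted p = 0.071).

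The collagen receptors were read by few kept probe sets. Itga1 read 58.0 and 50.1 in Ad and 54.8 and 48.2 in Pp, against 85.8 in the whole embryo on MOE430B, with a difference of -0.62 (interval -1.03 to -0.20, limma adjusted p = 0.151). Itga10 read 324 and 307 in Ad and 275 and 330.5 in Pp, against 342 in the whole embryo (-0.15, interval -0.54 to 0.24). Itga2 read 509.7 to 543 in the fragments, against 535 in the whole embryo. All 4 fragments were below the whole embryo for Itga1 and Itga10, by a clear gap only for Itga1.

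Apart from Itgb3, which also pairs with the platelet subunit Itga2b, no kept integrin of leukocytes or platelets passed against the whole embryo. Itga2b read 1019 and 944 in Ad and 1004 and 1043 in Pp, against 1112 in the whole embryo (-0.04, interval -0.23 to 0.15). Itgal, Itgax and Itgb7 on MOE430A had differences of 0.09, -0.01 and -0.05. Itga9, whose partner is beta1, had 0.06, and Itga4, also a beta1 partner, -0.04 on MOE430B. Itgam, Itgae and Itgb2, the common beta subunit of leukocytes, were below the filter on every array type that read them. Itgb2 read 217 to 249 in the fragments, against 290.4 in the whole embryo. The list of 14 blood, platelet and leukocyte genes on MOE430A had 9 kept, of which 1 fell (Csf1r), beside 5.18% of all kept probe sets. The 14 summed to 10001 and 9503 in Ad and 9491 and 9604 in Pp, against 10910.0 in the whole embryo.

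Of the proteins that switch integrins on, talin 1 and kindlin-2 were both lower in the fragments by their brightest probe sets. Tln1, talin 1, which binds beta tails and actin, read 1133 and 977 in Ad and 958 and 1094 in Pp, against 2005 in the whole embryo. The fragments were 1.66-fold lower (-0.73, interval -0.98 to -0.47, limma adjusted p = 0.0151), with Ad and Pp overlapping. A second kept Tln1 probe set, almost as bright, had only -0.03 (interval -0.22 to 0.16). Fermt2, kindlin-2, read 2255 and 2607 in Ad and 2260.0 and 2347 in Pp, against 4278 in the whole embryo, 1.64-fold lower (-0.71, interval -0.96 to -0.47, limma adjusted p = 0.0146). Tln2, the second talin, read 312 and 285 in Ad and 227 and 219.7 in Pp, against 214 in the whole embryo, and did not pass (0.25, interval -0.13 to 0.63). Its other 2 probe sets had 0.29 and -0.30, and the average of the 3 was 0.08.

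Of the proteins that carry force to actin, Vcl, vinculin, read 1460.3 and 1518 in Ad and 1298 and 1552 in Pp, against 2346 in the whole embryo. All 4 fragments were lower, 1.44-fold by the fit (-0.53, interval -0.79 to -0.27, limma adjusted p = 0.0375). Zyx read 843 and 831 in Ad and 856 and 963 in Pp, against 1466 in the whole embryo, 1.45-fold lower (-0.53, interval -0.75 to -0.32, limma adjusted p = 0.0205). Pxn, paxillin, an adhesion scaffold, was bright on every array, at 2630.4 and 2299.6 in Ad and 2217 and 2840.5 in Pp, against 3287 in the whole embryo. The fragments were lower on all 4 arrays, and with their wide spread the difference did not pass (-0.29, interval -0.64 to 0.06, limma adjusted p = 0.249).

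Integrin-linked kinase, PINCH and parvin form a complex that ties beta tails to actin, and the brightest MOE430A probe sets of Ilk and Lims1 were lower in the fragments without passing. Ilk read 1789 and 1822 in Ad and 1457 and 1807 in Pp, against 2698 in the whole embryo (-0.51, interval -0.80 to -0.22, limma adjusted p = 0.0521). Lims1 read 1596 and 1589.6 in Ad and 1768 and 1295 in Pp, against 2551 in the whole embryo (-0.56, interval -0.90 to -0.21, limma adjusted p = 0.0664). Both of these probe sets were lower in all 4 fragments. The Lims1 probe set of MOE430B lay the other way, at 52.6 and 85.7 in Ad and 72.9 and 80.4 in Pp, against 47.6 in the whole embryo, above it in all 4 fragments (0.49, interval -0.07 to 1.06, limma adjusted p = 0.36). Parva, alpha-parvin, was below the filter, at 352 and 334 in Ad and 362 and 386 in Pp, against 645 in the whole embryo. With no filter its 2 probe sets had differences of -0.49 (limma adjusted p = 0.0154) and -0.76 (limma adjusted p = 0.0146). Parvb on MOE430B was at 294 and 234 in Ad and 230.2 and 206 in Pp, against 206 in the whole embryo (0.20, interval -0.26 to 0.66).

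Probe sets of the same gene often gave unequal differences from the whole embryo. The brightest Tln1 probe set had -0.73, while the second read 1135 and 1107 in Ad and 1089 and 1167 in Pp, against 1233 in the whole embryo, a difference of -0.03 (interval -0.22 to 0.16). The 2 dimmer Itga3 probe sets had 0.10 and -0.05, beside -0.52 for the brightest. The second Zyx probe set had -0.11, beside -0.53, and the second Fermt2 probe set had -0.39 (limma adjusted p = 0.0946), beside -0.71. The dimmer Lims1 probe sets of MOE430A had -0.07 and -0.11, beside -0.56, and for the second of these the whole embryo lay inside the fragment range after centring. With the kept probe sets of a gene averaged, Itga3 had -0.16 (limma adjusted p = 0.23), Tln1 -0.38 (limma adjusted p = 0.0519) and Zyx -0.32 (limma adjusted p = 0.059), none of which passed, while Fermt2 did. For Itgb1, Itgb5 and Pxn the kept probe sets ran the same way.

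**Figure D3:**
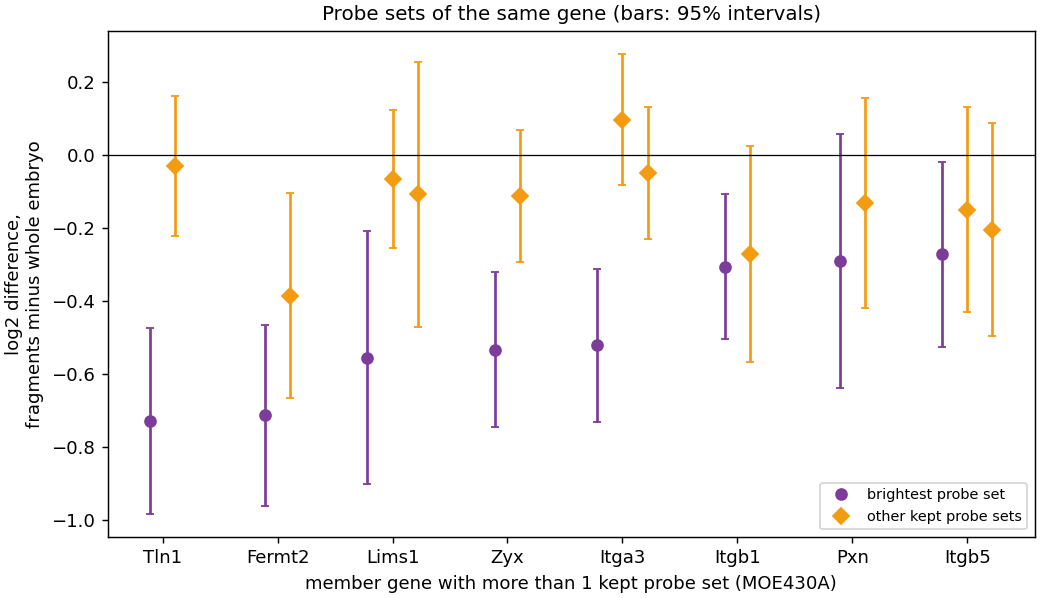
Log2 difference, fragments minus whole embryo, with 95% intervals, for every kept probe set of the 8 member genes with more than 1 on MOE430A, the brightest as circles and the others as diamonds. The brightest probe set has the lowest value for each gene, and the gap is widest for Tln1, at -0.73 against -0.03.

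The number of calls rested on the fragment arrays used. Leaving out a fragment array leaves 1 array in its group. On MOE430A few members were called where few of all probe sets were, and more where more of all were. The differences themselves moved little, from -0.76 to -0.66 for Fermt2 and from -0.77 to -0.69 for Tln1. Itgav passed in all 10 alternatives run for it, with differences between -1.40 and -1.19, and Itgb3 on MOE430B in all 10, between -2.51 and -2.12.

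Ligands and partners of integrins gave no call between the fragments, and every call against the whole embryo was lower in the fragments. Of 14 kept matrix ligand genes on MOE430A, none passed between Ad and Pp, against 0.169% of all kept probe sets, with a median of 0.05. The largest differences there were in basement membrane genes: Lamc1, the laminin gamma1 chain, read 1762 and 1832 in Ad, against 1122 and 938 in Pp (0.61, limma adjusted p = 0.11). Lamb1, the laminin beta1 chain, read 3428 and 3436 in Ad, against 2346 and 2243 in Pp (0.47, limma adjusted p = 0.105). Both pairs were well apart, and neither passed across all probe sets. Col4a2, a type IV collagen chain, had 0.45, and the lowest 3 values were those of Tnc, Hspg2 and Fn1, of which Tnc had -0.14 and Fn1 -0.07.

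Against the whole embryo 4 of the 14 matrix genes fell, beside 5.18% of all kept probe sets, with a list median of -0.22. Fn1, fibronectin, read 1911 and 1993 in Ad and 1759 and 2152 in Pp, against 4192 in the whole embryo (-0.94, limma adjusted p = 0.00989). Lamc1 read 3128 in the whole embryo (-0.98, limma adjusted p = 0.00438), above all 4 fragments. Col4a2 (-0.81) and Col4a1 (-0.62) also fell. Lamb1 did not pass, at 3472 in the whole embryo (-0.20, limma adjusted p = 0.146), a value close to that of the Ad arrays.

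Of 40 kept genes for other adhesion adaptors and integrin partners on MOE430A, none passed between Ad and Pp and 9 fell against the whole embryo. The shares of all kept probe sets were 0.169% and 5.18%, and the medians of the list were -0.01 and -0.12. Between the fragments the highest were Cib1 (0.49), Actn1 (0.37) and Vasp (0.34), and the lowest Src (-0.22), Dab2 (-0.18) and Fblim1 (-0.17). The caveolin gene Cav1 read 559 and 571 in Ad and 561 and 532 in Pp, against 1737 in the whole embryo, the lowest of the 9 (-1.22, limma adjusted p = 0.000763). The others that fell were Actn1 (-0.93), the tetraspanin Cd9 (-0.93), the integrin-associated protein Cd47 (-0.91), Arhgef7 (-0.64), Flna, filamin A (-0.63), Rsu1 (-0.59), Pdlim5 (-0.50) and Sorbs3 (-0.48). On MOE430B 11 such genes were kept and 2 fell against the whole embryo, Lpp (-1.31) and the tensin gene Tns3 (-1.28), beside 1.81% of all kept probe sets.

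Markers of other cell types moved with the same comparison. Of the 18 kept decidual genes 13 fell in the fragments against the whole embryo, beside 5.18% of all kept probe sets, with a median of -1.19. All 3 kept on MOE430B fell, beside 1.81% of all. Prl8a2, a decidual prolactin-family gene, read 254 and 564 in Ad and 241 and 267 in Pp, against 6063 in the whole embryo. Hand2, a transcription factor of decidual stroma, read 110.2 and 144 in Ad and 140.4 and 135 in Pp, against 2223 in the whole embryo on MOE430B. The decidual median of -1.19 lay below the difference of every kept member except Itgb3 and Itgav.

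Over all kept MOE430A probe sets 5.18% fell in the fragments and 4.6% rose. Of the parietal endoderm list 6 of 9 kept genes fell. Its 12 genes summed to 20575 and 19942 in Ad and 15538 and 16272 in Pp, against 31537 in the whole embryo. Lama1, Lamb1, Lamc1, Col4a1 and Col4a2 are also in the matrix ligand list, so the counts of the lists overlap. Of 9 kept extraembryonic ectoderm and trophoblast genes 2 fell (Hand1 and Plac1), and of 6 kept endothelial genes 1 fell (Esam). Of the epiblast list 7 of 10 kept genes rose in the fragments, and its 11 genes summed to 43550.1 and 45666 in Ad and 44539 and 40269 in Pp, against 31286 in the whole embryo. Of 13 kept visceral endoderm genes 4 rose and 0 fell, and of 9 kept AVE genes 5 rose and 0 fell. Otx2 is in both the epiblast and the AVE list. The part of decidual, parietal endoderm or trophoblast RNA in the lower member values was not tested.

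**Figure D4:**
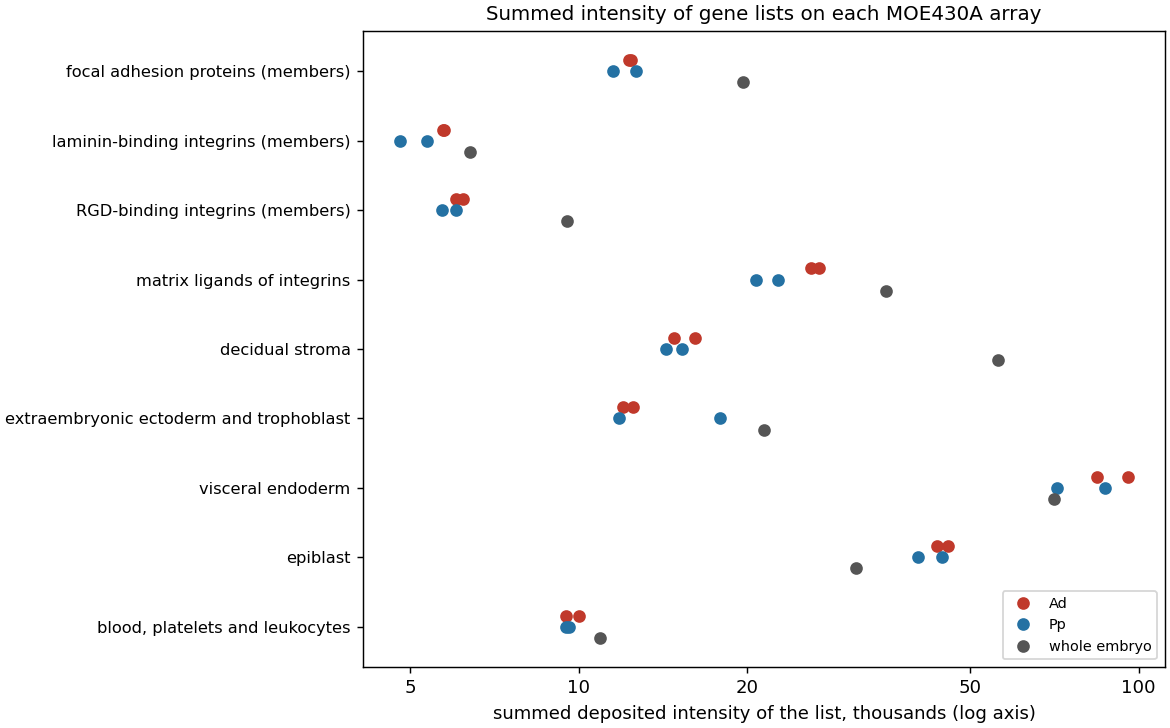
Summed deposited intensity on each MOE430A array (log axis) for 3 groups of member genes and 6 other gene lists, each gene by its brightest probe set. The 9 focal adhesion members sum to 12378 and 12312 in Ad and 11510.2 and 12637 in Pp, against 19622 in the whole embryo, a smaller gap than that of the decidual list at 14319 to 16131 in the fragments, against 56020 in the whole embryo.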

How the data were processed

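The 10 arrays were grouped by their titles. Per the submitters' processing notes, the deposited intensity of each probe set was computed with MAS5, in a version that is not given in the sources used here, as is its scaling. MOE430A held 22690 probe sets and MOE430B 22575, and 64 control sets of each were left out. Genes were named from GEO's platform annotation: 20393 and 14674 probe sets had 1 symbol, 691 and 245 several, and 1606 and 7656 none. A constant at the 20th percentile was added, log2 values were centred on each array's median, and probe sets with a mean under the 40th percentile were left out. The array medians ran from 591 to 645 on MOE430A and from 56.7 to 61.0 on MOE430B. Precision is limited by the few arrays. The array types were fitted separately with limma 3.58.1 (R 4.3.3; lmFit and eBayes over all 5 arrays), with Benjamini-Hochberg adjustment over all kept probe sets. Ad was set against Pp, and the average of both fragments against the whole embryo; these contrasts share the fragment arrays. The Ad against Pp fit was tested on simulated arrays with known differences planted between Ad and Pp. The contrast with the whole embryo was not simulated.

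Each gene was described by its brightest probe set per array type. Values per array were given for genes that passed, for the 12 brightest kept genes on MOE430A and 4 on MOE430B, and for the 3 largest Ad minus Pp differences each way. Of the other lists, genes past the threshold and the 3 largest each way were named. The members and lists were chosen with earlier results of these data known. The labels give Ad and Pp arrays the same numbers, which were not treated as pairs: deviations of same-numbered arrays from their group means correlated at -0.242 on MOE430A and -0.0392 on MOE430B across probe sets. Alternatives changed the centring, constant, filter, probe set rule, replicate block and the arrays used.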

Additional observations from a re-analysis of the deposited data

How the results depend on the processing

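Member calls between Ad and Pp stayed at 0 on both array types, except 1 (Itga6) without Pp replicate 1, a range of 0 to 1 on leaving out an array. Against the whole embryo, 6 members were called on MOE430A (1 to 15 on leaving out an array) and 9 without centring, 8 without the filter, 7 with the filter at the 60th percentile, and 6 with quantile normalization, no constant or the constant at the 40th percentile; MOE430B kept 1 (Itgb3) throughout. Over all probe sets, the Ad minus Pp count of 23 on MOE430A was 46 without centring (1 to 807 on leaving out an array), and the 15 on MOE430B was 30 with the constant at the 40th percentile, 2 without the filter and 26 with the filter at the 60th (0 to 131). The fragments against whole embryo counts of 1327 and 299 ran from 274 to 3494 and from 101 to 1180, with 196 on MOE430B without the filter. A lone array left in a group was assumed to vary like the others.

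The replicate block gave 24 on MOE430A and 29 on MOE430B and changed no member call. The crossed pairing, chosen after seeing the data, gave 47 on MOE430A.

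Ad minus Pp differences near 0 changed sign. Without centring, Fermt2 had 0.068, Itgav 0.014, Lims1 0.062, Tln1 0.032, Vcl 0.058, Itga10 0.063 and Itga8 0.046, and Itga9 against the whole embryo had -0.017. Without the filter, Fermt2 had 0.028, Lims1 0.022, Vcl 0.019 and Itga10 0.0045. The constant at the 40th percentile gave Fermt2 0.0035, and averaging probe sets gave Fermt2 0.029, Itgb5 -0.012 and Lims1 0.042. On leaving out an array, Ad minus Pp ran from -0.10 to 0.10 for Fermt2, -0.19 to 0.077 for Itgav, -0.19 to 0.18 for Lims1, -0.12 to 0.047 for Tln1, -0.13 to 0.11 for Vcl, -0.0898 to 0.13 for Itgb5, -0.076 to 0.21 for Ilk, -0.023 to 0.0896 for Itgb1 and -0.26 to 0.074 for Pxn on MOE430A. On MOE430B it ran from -0.11 to 0.088 for Itga10, -0.16 to 0.10 for Itga8, -0.31 to 0.11 for Itga4 and -0.53 to 0.0602 for Lims1, and fragments minus whole embryo from -0.15 to 0.066 for Itga4 and -0.012 to 0.12 for Itga8. The cause was not tested.

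Calls against the whole embryo for Itga3, Tln1, Vcl and Zyx were lost when Ad replicate 1 or Ad replicate 2 was left out, and that for Fermt2 without Ad replicate 1. Itga3, Tln1 and Zyx also lost their calls when a gene's kept probe sets were averaged. Ilk, Itgb1 and Lims1 passed without centring. Only 1 whole-embryo array per type limits every value against it.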

Other observations

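Several member probe sets below the filter were tested only in the setting without it. On MOE430A, Itga4 read 312 and 292 in Ad and 286 and 313 in Pp, against 349 in the whole embryo. Itga8 read 81.3 and 77.9 in Ad and 95.3 and 97.8 in Pp, against 73.4 in the whole embryo. Parvb read 319 and 334 in Ad and 334 and 350.1 in Pp, against 346 in the whole embryo. Itgam, a leukocyte alpha subunit, read 258 and 222 in Ad and 223 and 217 in Pp, against 237 in the whole embryo. Itgae, the alpha subunit that binds E-cadherin, read 231 and 212 in Ad and 215 and 219.9 in Pp, against 243 in the whole embryo. The second Vcl probe set read 79.2 and 75.5 in Ad and 93.4 and 96.2 in Pp, against 87.6 in the whole embryo.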
